A study of Rattus norvegicus with 8 samples.

Results

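Levels of the NRF2 pathway and of the enzymes and transporter that supply glutathione were read from microarrays of rat lung. The set was given as 9 rat genes, Nfe2l2, Keap1, Txnrd1, Srxn1, Gclc, Gclm, Slc7a11, Gsr and Hmox1. A probe belonged to the set when the RefSeq accession of its array annotation, without its version, is one of those of these genes. All 9 genes had a probe, 11 probes of 45598 in all, and 9 of these probes, for 8 genes, passed the filter on dim signal. The single Gclm probe and the second Slc7a11 probe were not well above background on any array, so Gclm has no level here.

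NRF2, the product of Nfe2l2, is a transcription factor that KEAP1 holds in the cytoplasm and hands to a CUL3 ubiquitin ligase for destruction. Oxidants and electrophiles, of which cigarette smoke carries many, modify cysteines of KEAP1, and NRF2 then reaches the nucleus and, with a small MAF protein, binds antioxidant response elements at genes for thioredoxin, glutathione and haem metabolism. In lung this system is known for its part in defence against inhaled smoke, and much of its control acts on the NRF2 protein, which an RNA array does not see.

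The arrays hold total RNA of male rat lung in 4 groups of 2 samples. EV lungs come from rats that first breathed cigarette smoke over 12 weeks and received, into the trachea in week 13, extracellular vesicles (EVs) from human umbilical cord mesenchymal stem cells (MSCs). MSC lungs had the same smoke exposure and received the stem cells themselves, about 2.5 × 10⁶, the number from which the vesicles had also been isolated. Smoke lungs had the 12 weeks of smoke and neither treatment, and naive lungs are from rats that breathed normal air. The labels give neither the strain nor the age, do not say when after treatment the lungs were taken, and do not state whether the samples of a group are separate animals. The p values given here therefore describe the spread between samples, which may be technical.

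The arrays differed in brightness by group. The 75th percentile of processed signal was 762 and 483 on the EV arrays, 246 and 256 on the MSC arrays, 3235 and 2677 on the smoke arrays, and 568 and 362 on the naive arrays. The mean signal of the E1A spike-in controls, RNA of known amount added to each sample at labelling, was 0.959, 1.15 and 0.839 times that of the naive arrays in the EV, MSC and smoke groups. The level of a gene is log2 of its signal minus log2 of its array's 75th percentile, so the brightness of the whole array is taken out. On this scale the median over all 25097 features was −0.62 for smoke against naive, 0.55 for EV against smoke and 0.74 for MSC against smoke, and scaled to the spike-ins it was 2.33, −1.92 and −3.27. Differences are therefore given on the percentile scale, relative to the median of all features, which is the same number under both scalings, and on the spike-in scale where the sign differs. Whole lung was measured, and fewer cells of a type and less RNA per cell cannot be told apart. The label lung held: 6 of 7 markers of alveolar type 2 cells, which make surfactant, were measured and were well above background on all 8 arrays. The second naive array stood apart in liver markers: Ttr and Apoa1, the 2 of 3 that were measured, summed there to 14.8 times the array's 75th percentile, against 0.0104 to 0.125 on the other 7 arrays. The Ttr level was 3.86 on it and −4.92 on the first naive array.

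Differences were tested with limma across all features, and a feature is called where its Benjamini-Hochberg adjusted p is below 0.05. In smoke against naive, 2 of the 8 measured genes were called, 1 higher and 1 lower, where 47.5% of all features were called, 12.1% higher and 35.4% lower. In EV against smoke it was 3 genes, 2 higher and 1 lower, beside 39.8% of features (29.9% higher, 9.97% lower). In MSC against smoke it was 5 genes, 2 higher and 3 lower, beside 59.7% of features (43.3% higher, 16.4% lower). The shares of the set called were 25%, 37.5% and 62.5%, below that of all features in smoke against naive and near it in the other 2. By direction they differed more, with 3 of 8 lower in MSC against smoke beside 16.4% of features. With 8 genes the counts are not read as a result about the NRF2 genes, and what follows is about the single genes. No gene of the set was called in EV against MSC (7.14% of features, 1.8% higher and 5.34% lower), EV against naive (0% of features) or MSC against naive (0.00398%, which is 1 feature). At an unadjusted limma p below 0.05 the counts were 1, 0 and 1 of 8 in these 3 comparisons, and the gene was Slc7a11 both times, where 31.0%, 4.26% and 21.9% of all features were below it. Arrays of the 2 groups did not overlap for 7 of 8 genes in each of the first 3 comparisons, where 79.4%, 82.8% and 80.5% of features did not. In EV against MSC, EV against naive and MSC against naive it was 5, 2 and 4 of 8 genes, beside 61.3%, 37.6% and 48.9% of features. Without the second naive array Txnrd1 in smoke against naive was 2.59. The calls of Gsr, Mafg and Abcc2 in smoke against naive and of Keap1 in MSC against smoke were lost. This Keap1 call was lost without the first naive array too, so its loss is not particular to the second. The first 3 comparisons share the smoke arrays, so a gene that is high or low there moves in all of them.

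**Figure D1:**
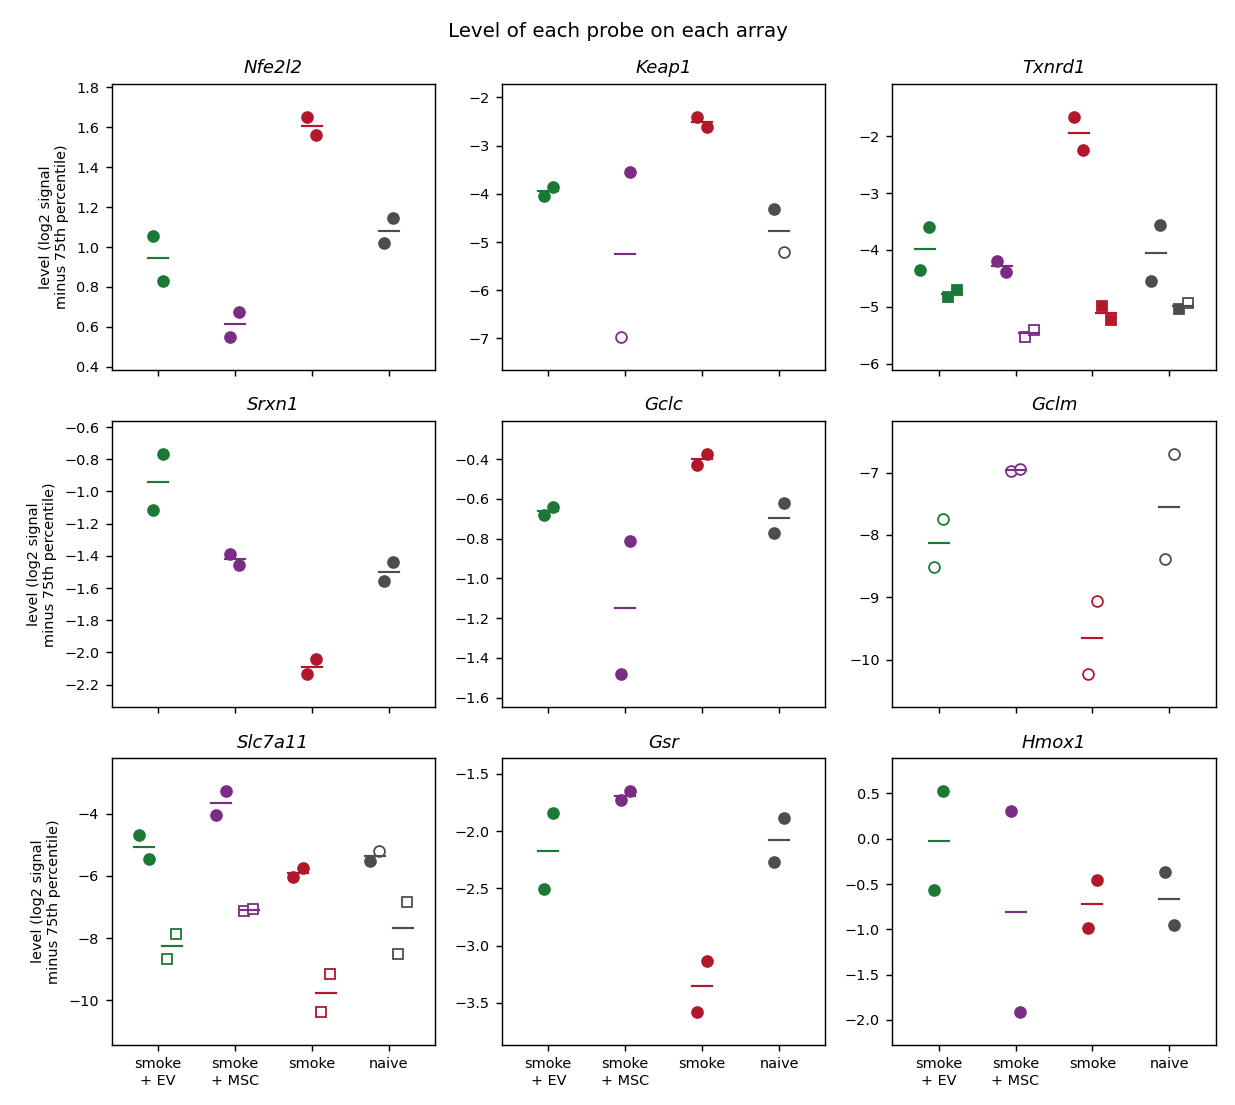
Level of each probe of the 9 genes on each of the 8 arrays (vertical axis, log2 signal minus log2 of the array's 75th percentile), with EV, MSC, smoke and naive lungs from left to right, circles for the probe that represents a gene, squares for a second probe, a bar at the mean of 2 arrays, and open marks for arrays on which the probe was dim, not well above background. By the circles, Txnrd1 is highest on both smoke arrays, Srxn1 and Gsr are lowest there, and Slc7a11 is highest on both MSC arrays. The squares of Txnrd1 and Slc7a11 do not follow this, and those of Slc7a11 are dim on every array.

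The regulators come first, NRF2 and its inhibitor. Nfe2l2 levels were 1.06 and 0.83 in EV lungs, 0.55 and 0.68 in MSC lungs, 1.65 and 1.56 in smoke lungs, and 1.02 and 1.15 in naive lungs. Both smoke arrays stood above all 6 others and both MSC arrays below them, while EV and naive arrays overlapped. Nfe2l2 fell in MSC against smoke, the log2 difference being −0.995 (SE 0.26, adjusted p = 0.0130), or −1.74 relative to the median of all features. That distance from the median was exceeded by 33.2% of features. The difference was −0.66 in EV against smoke (SE 0.26, adjusted p = 0.0779) and 0.53 in smoke against naive (SE 0.26, adjusted p = 0.132), and neither was called. They passed in 7 and 5 of 21 alternatives, among them quantile normalization (−1.04 and 0.98), cyclic loess (−1.08 and 1.01) and array median scaling (−0.96 and 0.86), with the same signs. The MSC call was lost without the first smoke array (adjusted p = 0.0750, log2 difference −0.95).

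Keap1, the inhibitor of NRF2, had the widest spread of the set. Its levels were −4.05 and −3.85 in EV lungs, −6.97 and −3.54 in MSC lungs, −2.40 and −2.61 in smoke lungs, and −4.31 and −5.21 in naive lungs. Both smoke arrays were above all others. The first MSC array and the second naive array were not well above background, with processed signals of 1.96 and 9.79, against 614 and 440 on the smoke arrays. Keap1 fell in MSC against smoke by 2.75 on the log2 scale (SE 0.95, adjusted p = 0.0371). Relative to the median of all features this was −3.50, a distance exceeded by 4.28% of features. The log2 difference was 2.26 in smoke against naive (SE 0.95, adjusted p = 0.0834) and −1.45 in EV against smoke (SE 0.95, adjusted p = 0.251). The estimate of spread for this gene rests on the 2 MSC arrays: without either of them smoke against naive and EV against smoke passed (adjusted p = 0.00482 and 0.0196), while MSC against smoke was −1.04 (adjusted p = 0.0851) without the first and −4.47 (adjusted p = 0.00135) without the second. The call in MSC against smoke passed in only 10 of 20 alternatives, and was also lost without either smoke array (adjusted p = 0.130 and 0.0965). With the background corrected by normexp the sign in MSC against smoke turned (0.15), and the difference in smoke against naive was 0.32.

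The promoters of the pathway's repressor Keap1 and of the thioredoxin-system genes Txnrd1 and Srxn1, each of which had a call, are shown as letters, since the antioxidant response element is a DNA sequence. RefSeq windows of build GRCr8, from 250 bases before to 50 after a start site, were matched for 7 of the 9 genes, 8 windows in all since Txnrd1 has 2 starts. Hmox1 and Gsr were not among them. The core searched was TGANNNNGC on both strands. It stood in 6 of the 8 windows, and in 40.5% of all 33469 windows of the same length. The stricter TGACNNNGC, each match of which is also a core match, stood in 3 of 8 and in 12.1% of all. The AP-1 motif TGANTCA stood in 1 of 8, that of Srxn1, and in 7.33% of all. Such matches are letters and not binding sites. The sequences run 5′ to 3′ on the strand of the gene, with core matches on either strand in capitals. The Keap1 window is chr8:28053993-28054292 on the minus strand, the Txnrd1 windows are chr7:22755855-22756154 and chr7:22764802-22765101 on the minus strand, and the Srxn1 window is chr3:161064562-161064861 on the plus strand.
Keap1: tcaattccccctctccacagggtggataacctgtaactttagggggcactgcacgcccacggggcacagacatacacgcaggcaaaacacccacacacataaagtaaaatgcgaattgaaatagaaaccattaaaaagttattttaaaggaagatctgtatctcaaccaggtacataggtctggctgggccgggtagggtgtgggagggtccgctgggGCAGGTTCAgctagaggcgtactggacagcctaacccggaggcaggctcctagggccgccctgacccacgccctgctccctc
Txnrd1, first window: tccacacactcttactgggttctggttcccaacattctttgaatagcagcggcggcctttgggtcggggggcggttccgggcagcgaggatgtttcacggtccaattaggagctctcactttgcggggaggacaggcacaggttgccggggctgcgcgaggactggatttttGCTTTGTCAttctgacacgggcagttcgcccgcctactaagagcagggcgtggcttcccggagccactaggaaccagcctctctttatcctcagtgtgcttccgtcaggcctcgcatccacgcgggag
Txnrd1, second window: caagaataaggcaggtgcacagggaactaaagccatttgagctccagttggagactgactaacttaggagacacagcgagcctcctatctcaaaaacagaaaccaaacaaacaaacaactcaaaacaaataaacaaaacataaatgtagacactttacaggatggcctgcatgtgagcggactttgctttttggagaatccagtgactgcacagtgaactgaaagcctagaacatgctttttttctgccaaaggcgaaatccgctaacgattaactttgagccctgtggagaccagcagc
Srxn1: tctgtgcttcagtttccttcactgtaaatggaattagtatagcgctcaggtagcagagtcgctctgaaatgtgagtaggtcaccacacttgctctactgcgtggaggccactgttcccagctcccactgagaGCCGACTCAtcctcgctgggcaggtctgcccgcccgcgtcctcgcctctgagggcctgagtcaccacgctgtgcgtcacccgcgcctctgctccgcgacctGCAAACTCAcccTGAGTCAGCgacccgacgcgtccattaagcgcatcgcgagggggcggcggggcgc

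The core match of Keap1 lies 32 bases before the start site on the other strand, as TGAACCTGC. The first Txnrd1 window holds TGACAAAGC on the other strand, 78 bases before the start site, and the second window holds no core match. Srxn1 holds 3 core matches, TGAGTCGGC at 118 and TGAGTTTGC at 17 bases before the start on the other strand and TGAGTCAGC at 5 bases before it on the gene's strand. The last of these overlaps the AP-1 match TGAGTCA, which also occurs 62 bases before the start. Nfe2l2 and Gclm have 1 core match each that also meets the stricter form, Slc7a11 has 1 that does not (TGATAGGGC), and Gclc has none in this window.

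Txnrd1 encodes cytosolic thioredoxin reductase, which keeps thioredoxin reduced with NADPH and is a standard NRF2 target. Its levels were −4.36 and −3.60 in EV lungs, −4.19 and −4.38 in MSC lungs, −1.66 and −2.24 in smoke lungs, and −4.54 and −3.57 in naive lungs. Both smoke arrays stood clearly above the other 6, which overlapped among themselves. In processed signal these were 37.2 and 39.8, 13.5 and 12.3, 1026 and 566, and 24.4 and 30.6, in the same order. Txnrd1 rose in smoke against naive by a log2 difference of 2.11 (SE 0.43, adjusted p = 0.00763), 2.72 relative to the median of all features, a distance from that median exceeded by 5.49% of features. It fell in EV against smoke (−2.03, SE 0.43, adjusted p = 0.0112) and in MSC against smoke (−2.34, SE 0.43, adjusted p = 0.00287), and the 3 directions were the same on the spike-in scale (5.05, −4.50 and −6.35). EV lungs differed from naive lungs by 0.08 (SE 0.43) and MSC lungs from naive lungs by −0.23 (SE 0.43), with adjusted p values of 0.996 and 0.782.

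The second Txnrd1 probe, annotated to another RefSeq transcript of the gene, did not follow. Its levels were −4.84 and −4.71 in EV lungs, −5.53 and −5.40 in MSC lungs, −4.98 and −5.24 in smoke lungs, and −5.04 and −4.94 in naive lungs, so that smoke and naive arrays overlapped. Its log2 differences were −0.12 for smoke against naive, 0.33 for EV against smoke and −0.36 for MSC against smoke (adjusted p = 0.731, 0.340 and 0.275 over all probes). It was not well above background on either MSC array, where its signal bounds the smoke level at least 1.28-fold higher. The call for Txnrd1 thus rests on 1 probe: with the mean of both probes the EV difference was −0.85 and was not called (adjusted p = 0.0714), and smoke against naive was 0.99 (adjusted p = 0.0388). Under normexp MSC against smoke shrank to −0.23 and lost its call (adjusted p = 0.518), as did smoke against naive (0.65). Without the first smoke array the calls in smoke against naive (1.81, adjusted p = 0.0619) and EV against smoke (−1.74, adjusted p = 0.0882) were lost, and the EV call also went without the first EV array (−1.65, adjusted p = 0.0637).

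Srxn1 encodes sulfiredoxin, which repairs over-oxidised peroxiredoxins and is also a standard NRF2 target. Its levels were −1.11 and −0.77 in EV lungs, −1.39 and −1.46 in MSC lungs, −2.14 and −2.04 in smoke lungs, and −1.56 and −1.44 in naive lungs. The smoke arrays were the lowest and the EV arrays the highest, with no overlap between either of them and any other group. Srxn1 rose in EV against smoke by 1.15 (SE 0.27, adjusted p = 0.0150), which is 0.60 relative to the median of all features, while on the spike-in scale the sign turned (−1.32). Its distance from that median was exceeded by 60.3% of features. The difference in MSC against smoke was 0.67 (SE 0.27, adjusted p = 0.0642) and that in smoke against naive was −0.59 (SE 0.27, adjusted p = 0.105). Relative to the median of all features these were −0.08 and 0.03, so the position of Srxn1 among the features was almost the same in the 3 groups. The EV call was lost without either smoke array (adjusted p = 0.101 and 0.0531) and without the second EV array (adjusted p = 0.120).

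**Figure D2:**
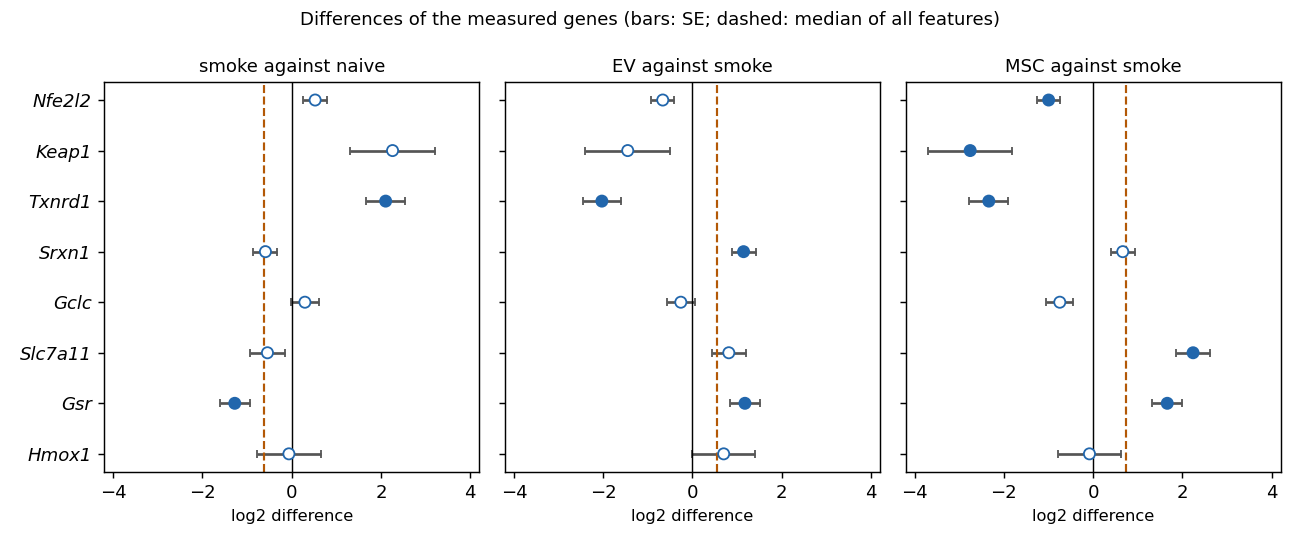
Log2 difference of each of the 8 measured genes (horizontal axis, percentile scale) in smoke against naive, EV against smoke and MSC against smoke, with bars of 1 standard error of the limma fit, filled where the adjusted p is below 0.05, and a dashed line at the median of all features. Txnrd1 lies below that median in both treatments and above it in smoke against naive, and Srxn1 lies close to it in smoke against naive and in MSC against smoke.

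Glutathione is made from glutamate, cysteine and glycine, and the first and limiting step is run by the ligase of the catalytic subunit Gclc and the modifier subunit Gclm. Gclc levels were −0.68 and −0.64 in EV lungs, −1.48 and −0.81 in MSC lungs, −0.43 and −0.37 in smoke lungs, and −0.77 and −0.62 in naive lungs. Both smoke arrays were the highest and both MSC arrays the lowest, and EV and naive arrays overlapped. No Gclc difference was called. They were 0.30 in smoke against naive (SE 0.31, adjusted p = 0.446), −0.26 in EV against smoke (SE 0.31, adjusted p = 0.518) and −0.75 in MSC against smoke (SE 0.31, adjusted p = 0.0681). The last of these passed under quantile normalization (−1.06), cyclic loess (−1.14) and array median scaling (−1.32).

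Slc7a11 is the chain of the cystine and glutamate exchanger that carries cystine into the cell, the source of cysteine for glutathione. Its levels were −4.70 and −5.46 in EV lungs, −4.03 and −3.28 in MSC lungs, −6.04 and −5.75 in smoke lungs, and −5.51 and −5.19 in naive lungs. Both MSC arrays were above all 6 others and both smoke arrays below them. The second naive array was not well above background. On the percentile scale Slc7a11 rose in MSC against smoke by 2.24 (SE 0.39, adjusted p = 0.00205). This is 1.50 relative to the median of all features and −1.77 on the spike-in scale. Its distance from that median was exceeded by 40.3% of features. The log2 difference was −1.42 in EV against MSC (SE 0.39, adjusted p = 0.0618) and 1.70 in MSC against naive (SE 0.39, adjusted p = 0.104), and neither was called. In EV against smoke it was 0.82 (SE 0.39, adjusted p = 0.126), and in smoke against naive it was −0.54 (SE 0.39, adjusted p = 0.271). The MSC call was lost under quantile normalization (1.14, adjusted p = 0.0600) and cyclic loess (1.11, adjusted p = 0.0560). In processed signal Slc7a11 was lower on the MSC arrays (15.1 and 26.4) than on the smoke arrays (49.2 and 49.8). The second Slc7a11 probe, dim on every array, also had a higher mean level in MSC lungs (−7.10) than in smoke lungs (−9.77). The part of array brightness in the rise was not tested.

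Gsr encodes glutathione reductase, which returns oxidised glutathione to the reduced form. Its levels were −2.51 and −1.85 in EV lungs, −1.73 and −1.65 in MSC lungs, −3.58 and −3.13 in smoke lungs, and −2.27 and −1.89 in naive lungs. Both smoke arrays were below the other 6, and both MSC arrays above them. Gsr fell in smoke against naive by 1.28 on the log2 percentile scale (SE 0.34, adjusted p = 0.0185), which is −0.66 relative to the median of all features, and was 1.67 higher on the spike-in scale. It rose in EV against smoke by 1.18 (SE 0.34, adjusted p = 0.0293) and in MSC against smoke by 1.66 (SE 0.34, adjusted p = 0.00426), with spike-in differences of −1.29 and −2.35. Most features lay further from the median of all features than Gsr did, 61.8%, 58.5% and 62.2% in these comparisons. The MSC call was kept under all 21 alternatives run, although its sign turned with the spike-ins. The EV call passed in 13 of 21 alternatives. It was lost under quantile normalization (0.88), cyclic loess (0.85), array median scaling (0.88) and a percentile over detected probes (0.94), with no filter on dim probes (adjusted p = 0.0693), without either smoke array (adjusted p = 0.182 and 0.0531) and without the second EV array (adjusted p = 0.195). Smoke against naive lost its call without the second naive array (−1.09) or the first smoke array (−1.05).

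Hmox1, the inducible haem oxygenase that frees iron, carbon monoxide and biliverdin from haem, showed no call in any of the 6 comparisons. Its levels were −0.57 and 0.52 in EV lungs, 0.30 and −1.91 in MSC lungs, −0.99 and −0.46 in smoke lungs, and −0.36 and −0.96 in naive lungs. Every pair of groups overlapped, and the 2 MSC arrays lay further apart than any 2 group means. The differences were −0.06 for smoke against naive, 0.70 for EV against smoke and −0.08 for MSC against smoke (SE 0.71 each, adjusted p = 0.949, 0.450 and 0.929).

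**Figure D3:**
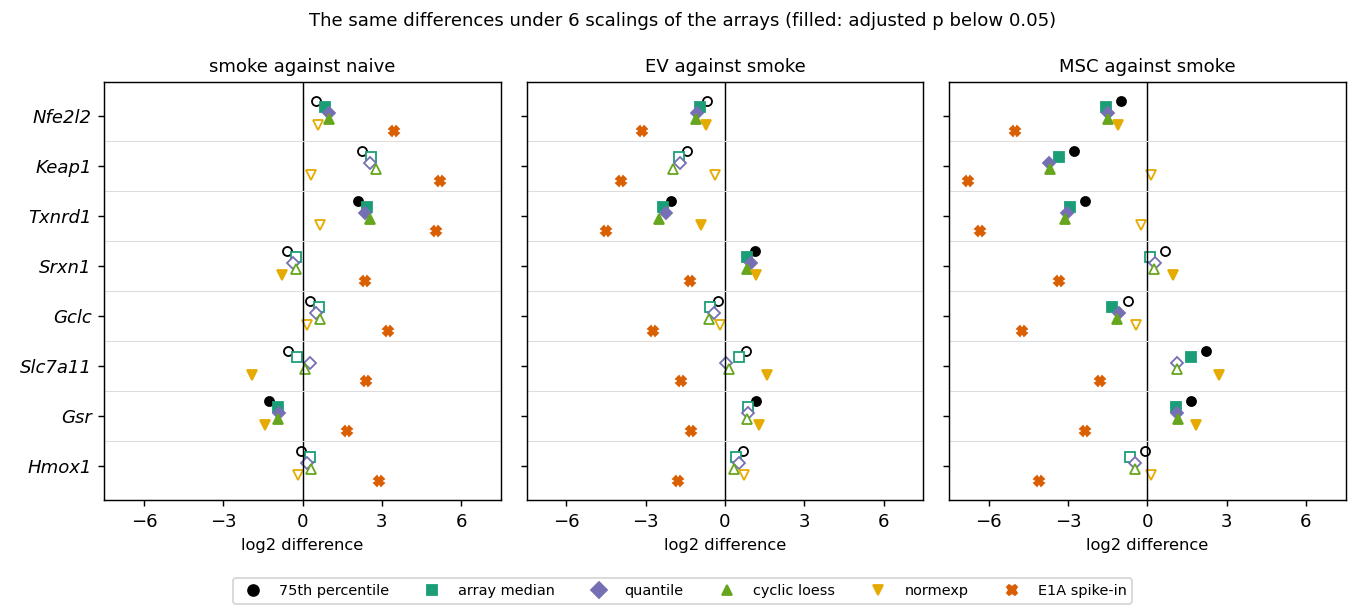
Log2 difference of each of the 8 measured genes (horizontal axis) in smoke against naive, EV against smoke and MSC against smoke under 6 ways of making the arrays comparable, filled where the adjusted p is below 0.05. With the E1A spike-ins all 8 genes are higher in smoke than in the other groups, and on the other scalings Srxn1 and Gsr have the opposite sign to Txnrd1 in both treatments.

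The genes of the set did not share 1 profile over the 8 arrays. Likeness was taken as the root mean square difference of levels after each gene was centred on its own mean. The closest pair was Nfe2l2 and Gclc (0.213), and the next was Srxn1 and Gsr (0.450). Txnrd1 and Slc7a11 were 1.72 apart, and the furthest pair was Keap1 and Slc7a11 (1.94). Of 9644 features with a symbol that were detected on all arrays, those most like Nfe2l2 were Glud1 (0.0901), Pmpcb (0.102) and Taf9b (0.109), with a median over all of 0.699. For Gclc they were Slc25a3 (0.0364), Ofd1 (0.0805) and Tbc1d5 (0.103), and for Hmox1 they were LOC102555465 (0.277), Rwdd3 (0.302) and Mcam (0.313). The nearest to Keap1 were Efhd2 (0.515), Efr3a (0.538) and Acp5 (0.567), where the median was 1.60.

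The wider pathway was described through 4 lists. Their counts stand beside the shares of all features, of which 12.1% were called higher and 35.4% lower in smoke against naive. These shares were 29.9% and 9.97% in EV against smoke, and 43.3% and 16.4% in MSC against smoke. The counts are not read as results about the lists. Of 14 NRF2 regulators 13 were measured, and in smoke against naive 2 were called higher and 7 lower. In EV against smoke 4 were called higher and 2 lower, and in MSC against smoke 5 higher and 2 lower. The medians were −0.83, 0.60 and 0.52, which lie 0.21 below, 0.05 above and 0.23 below those of all features. Bach1, the repressor that competes with NRF2 at antioxidant response elements, had levels of −1.28 and −0.85 in EV lungs, −0.43 and −0.63 in MSC lungs, −5.24 and −3.59 in smoke lungs, and −1.73 and −1.22 in naive lungs. Its smoke arrays were the lowest by a wide margin, and the differences were −2.94 for smoke against naive, 3.35 for EV against smoke and 3.89 for MSC against smoke (SE 0.52, adjusted p = 0.00469, 0.00494 and 0.000743). The other Bach1 probe gave −1.87, 2.08 and 2.46, and on the spike-in scale the values were 0.0067, 0.88 and −0.12. Cul3, the scaffold of the ligase that KEAP1 serves, went the other way on both of its probes, with −1.72 in EV against smoke (adjusted p = 0.0105) and −1.59 on the other probe. Btrc, which guides another ligase to NRF2, differed by −1.58, 1.55 and 2.15 in the 3 comparisons, with a second probe at −0.78, 0.67 and 0.89. Mafg, a small MAF partner, differed by −1.55 in smoke against naive and 1.68 in MSC against smoke, and its other probe by −0.14 and 0.12. The signs of Btrc and Mafg turned with the spike-ins.

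Of 18 genes of glutathione metabolism 17 were measured. In smoke against naive 4 were called higher and 4 lower. In EV against smoke 2 were called higher and 3 lower, and in MSC against smoke 4 higher and 4 lower. The medians were 0.33, −0.29 and −0.37, or 0.95, −0.83 and −1.11 relative to those of all features. Slc3a2 is the heavy chain that pairs with Slc7a11 and with other amino acid transporters. Its levels were −1.18 and −1.39 in EV lungs, −0.78 and −1.16 in MSC lungs, 1.59 and 0.79 in smoke lungs, and −1.20 and −1.34 in naive lungs, so both smoke arrays stood far above the rest. It rose in smoke against naive by 2.46 (SE 0.34, adjusted p = 0.00259) and fell in EV against smoke (−2.48, adjusted p = 0.00429) and in MSC against smoke (−2.16, adjusted p = 0.00149). In MSC against smoke its sign was opposite to that of its partner Slc7a11, except on the spike-in scale, where both were negative (−6.16 and −1.77). All 3 Slc3a2 calls held under all 21 alternatives. Hagh, which finishes the glutathione-dependent disposal of methylglyoxal, rose in smoke against naive (2.15, adjusted p = 0.00297) and fell in MSC against smoke (−2.42, adjusted p = 0.000708). Ggct, which breaks down the gamma-glutamyl products of glutathione, fell in smoke against naive (−2.11, adjusted p = 0.00305) and rose in both treated groups against smoke (2.22 for EV, 2.68 for MSC), with opposite signs on the spike-in scale (0.84, −0.26 and −1.33). Cth, which makes cysteine from cystathionine, was not well above background on any EV or MSC array. It passed the filter through the smoke arrays alone, where it is high, so its difference is described with no test, although it is among the counts above. Its level in EV lungs was at least 4.80-fold lower than in smoke lungs and in MSC lungs at least 3.12-fold lower. With normexp its EV difference was −0.09.

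Thioredoxin and NADPH supply had 11 of 12 genes measured. In smoke against naive 4 were called higher and 3 lower. In EV against smoke 4 were called higher and 4 lower, and in MSC against smoke 3 higher and 4 lower. The medians were −0.35, 0.11 and −0.15, or 0.27, −0.44 and −0.90 relative to those of all features. Prdx1, a peroxiredoxin that reduces peroxides with electrons from thioredoxin, had levels of −1.24 and −1.22 in EV lungs, −0.94 and −1.06 in MSC lungs, 1.25 and 0.37 in smoke lungs, and −0.85 and −1.01 in naive lungs. It was highest on both smoke arrays, as Txnrd1 was, and differed by 1.74 for smoke against naive, −2.04 for EV against smoke and −1.81 for MSC against smoke (SE 0.34, adjusted p = 0.00635, 0.00565 and 0.00299). These calls held under all 21 alternatives. Txnrd2, the mitochondrial reductase, rose in smoke against naive (1.76, adjusted p = 0.00482), although its sign turned under normexp (−0.63). Of the enzymes that make NADPH, Pgd in the pentose phosphate pathway was higher in smoke than in naive lungs (1.77, adjusted p = 0.00888). It was lower in EV against smoke (−1.76, adjusted p = 0.0118) and in MSC against smoke (−2.24, adjusted p = 0.00199). Me1, the cytosolic malic enzyme, was higher in EV than in smoke lungs (1.56, adjusted p = 0.00678), and Tkt, transketolase of the same pathway as Pgd, was higher in MSC than in smoke lungs (1.90, adjusted p = 0.000973), both with the sign turned on the spike-in scale (−0.91 and −2.10).

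All 18 genes of detoxification, haem and iron were measured. In smoke against naive 4 were called higher and 3 lower. In EV against smoke 3 were called higher and 4 lower, and in MSC against smoke 3 higher and 7 lower. The medians were 0.42, −0.49 and −0.61, or 1.04, −1.04 and −1.35 relative to those of all features. Mgst1, a membrane glutathione transferase, had levels of −2.35 and −2.11 in EV lungs, −1.96 and −2.33 in MSC lungs, 1.07 and −0.01 in smoke lungs, and −2.11 and −0.87 in naive lungs. Both smoke arrays were above the rest, and the differences were 2.02 for smoke against naive, −2.76 for EV against smoke and −2.68 for MSC against smoke (SE 0.50, adjusted p = 0.0148, 0.00699 and 0.00304). The first 2 were lost without the first smoke array (1.48 and −2.22). Gsta4, the transferase for lipid aldehydes, fell in EV against smoke (−1.92, adjusted p = 0.0127). Ftl1, the ferritin light chain, differed by −1.58, 1.55 and 1.99 in the 3 comparisons, with the signs turned both under quantile normalization (0.24, −0.02 and −0.60) and with the spike-ins (1.37, −0.92 and −2.02). Abcc2, an exporter of glutathione conjugates, differed by −1.59 in smoke against naive and 2.02 in MSC against smoke, also with turned signs on the spike-in scale (1.36 and −1.99).

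**Figure D4:**
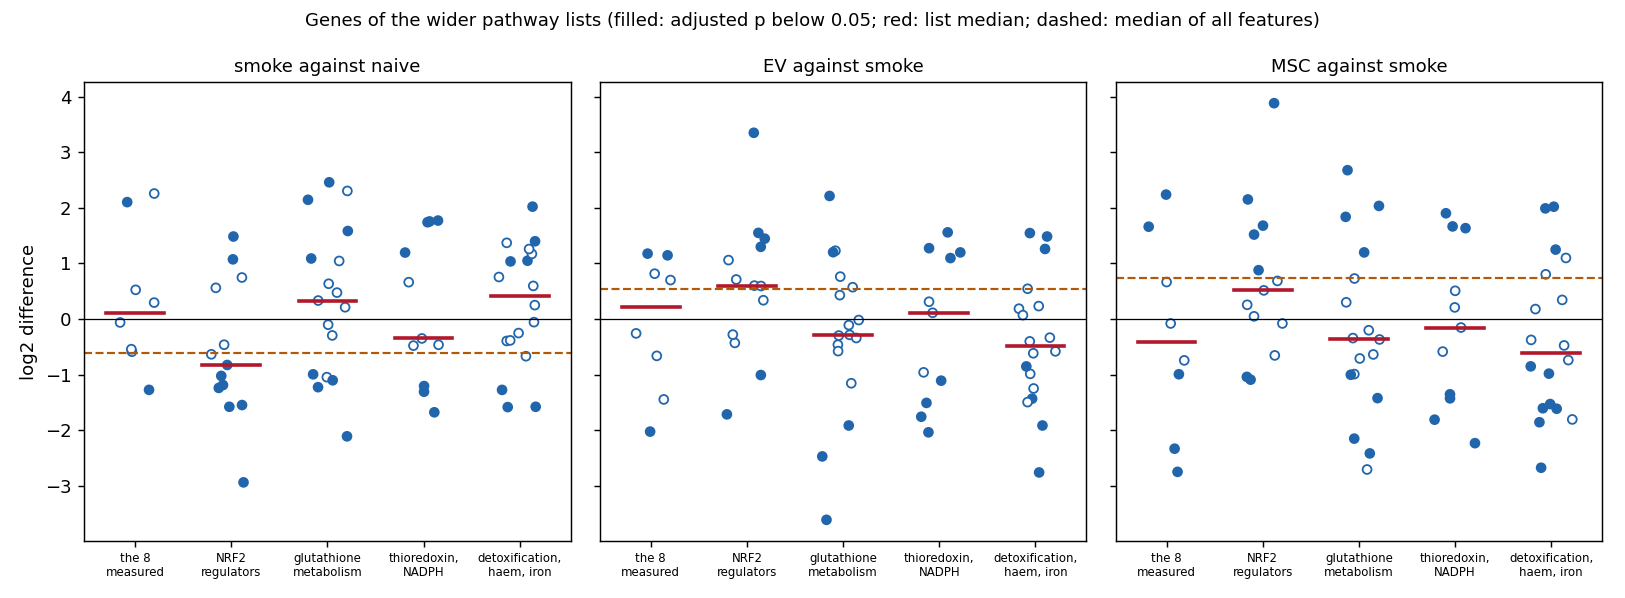
Log2 difference (vertical axis, percentile scale) of every measured gene of the set and of the 4 wider lists in smoke against naive, EV against smoke and MSC against smoke, a circle per gene, filled where the adjusted p is below 0.05, with a red bar at the list's median and a dashed line at the median of all features. Each list holds called genes above and below 0 in each of these comparisons, and the lowest circle in EV against smoke is Cth, which was not well above background in EV lungs.

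Marker lists of other cell types were read on the same arrays. Of all features 12.1% were called higher and 35.4% lower in smoke against naive. These shares were 29.9% and 9.97% in EV against smoke, and 43.3% and 16.4% in MSC against smoke. Counts from lists this small are not read as results about a cell type. All 8 macrophage markers were measured, and 4 were called higher and 0 lower in smoke against naive. In each treated group against smoke, 1 was called higher and 3 lower. In either direction the share of called markers was near that of all features. By direction it was not, with 4 of 8 higher in smoke against naive beside 12.1% of features. The same holds for 3 of 8 lower in EV against smoke, beside 9.97%, and in MSC against smoke, beside 16.4%. Marco is among the 8 markers and passed the filter through the smoke arrays alone. The summed level of the 8, in multiples of the array's 75th percentile, was 2.05 and 2.29 in EV lungs, 1.98 and 2.10 in MSC lungs, 4.74 and 3.20 in smoke lungs, and 2.04 and 1.76 in naive lungs. Cd68 is the brightest in this sum. Msr1 differed from it in sign in smoke against naive (−0.99, not called), as did Marco, with −5.82 and −6.54 in smoke lungs and −4.98 and −5.72 in naive lungs. Cd163 also had a lower mean in smoke lungs (−4.46 and −4.28) than in naive lungs (−4.48 and −3.95), with overlap. Its levels were highest on the MSC arrays (−1.73 and −0.43). Of the 6 measured markers of alveolar type 2 cells, 0 were called higher and 3 lower in smoke against naive, 2 higher and 0 lower in EV against smoke, and 2 higher and 1 lower in MSC against smoke. They summed to 943 and 1174 in EV lungs, 1496 and 773 in MSC lungs, 403 and 418 in smoke lungs, and 1162 and 1473 in naive lungs. The brightest of them carry this sum, and Sftpa1 and Napsa differed from it in sign, with 0.60 and 0.79 in smoke against naive, neither called. The processed signal of Sftpc was instead highest on the smoke arrays, 549070 and 490446, against 409798 and 341494 on the naive arrays. Marker sums on the spike-in scale were not formed. The 4 endothelial markers summed to 81.5 and 92.3 in EV lungs, 191 and 98.0 in MSC lungs, 35.7 and 48.8 in smoke lungs, and 112 and 146 in naive lungs. Of these 4, 2 were called lower in smoke against naive, 1 higher in EV against smoke and 3 higher in MSC against smoke. The 3 measured erythroid markers of 5 summed to 7.97 and 5.02 in EV lungs, 14.0 and 3.97 in MSC lungs, 2.64 and 1.98 in smoke lungs, and 5.82 and 4.27 in naive lungs, with 1 called higher in smoke against naive and 1 in MSC against smoke. Alas2, the brightest, carries this sum, with −1.49 in smoke against naive. Slc4a1 differed from it in sign there (1.18) and is the marker called higher. The list's median was −0.37, or 0.25 above that of all features. On the percentile scale macrophage sums were thus highest, and type 2, endothelial and erythroid sums lowest, on both smoke arrays. Sums of the other lung lists did not set both smoke arrays apart. Alveolar type 1 markers summed to 163 and 178 in smoke lungs and to 90.8 on the second MSC array. Club markers summed to 81.3 and 77.1 in smoke lungs and to 55.6 on the first MSC array. Neutrophil sums were 4.23 and 2.74, with 2.82 on the first naive array. Fibroblast sums were 12.3 and 14.1, with 13.9 on the second naive array. The part of these cell types in the differences of the NRF2 genes was not tested. Each group also fills 1 column of the single slide, so that slide column and group cannot be told apart.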

How the data were processed

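The deposited files come from Agilent Feature Extraction 10.7.3.1 and hold 1-colour arrays, per the file headers. Each holds intensity values, the processed signal per spot, which is background-subtracted, and other flags that mark spots as well above background, saturated or outliers. The deposited intensity values were not normalized between arrays; later steps by the authors are not given in the sources used here. The labelled RNA was 200 ng from 30 mg of lung, per the labels' protocols.

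After removal of outlier spots, the spots of each probe were averaged and each array's 75th percentile subtracted on the log2 scale. A probe had to be well above background on both arrays of some group (29612 of 45598 were), and none was saturated. Symbols came from RefSeq accessions (GRCr8), which matched 21215 probes. A gene was represented by its brightest probe, which gave 25097 features. Between 48.1% and 71.3% of probes were well above background on an array, and 2 arrays per group limit the precision.

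limma 3.58.1 in R 4.3.3 (with the package data.table, version 1.17.8) fitted 4 group means over 8 arrays, with Benjamini-Hochberg adjustment in each of 6 comparisons and 2-sided p values. The fit was tested on simulated data. Figures were drawn with Python 3.11.15 and matplotlib 3.10.9. For E1A scaling the mean of 7 of 10 control probes with a mean log2 signal above 6 was subtracted. Where both arrays of a group were dim for a probe, the fold is a lower bound against the dimmest signal well above background or the probe's own signal, whichever is higher.

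The genes and lists were chosen with earlier results of these data known. Named are all 9 genes, up to 3 called genes with the largest difference and no overlap from each wider list and comparison, and the 3 features most like Nfe2l2, Keap1, Gclc and Hmox1. Alternatives were other scalings (quantile, cyclic loess, array median, spike-in, a percentile over detected probes), normexp with an offset of 50, no or a stricter filter, other uses of several probes, other fits, the replicate number as a block, and leaving out arrays.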

Additional observations from a re-analysis of the deposited data

How the results depend on the processing

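Of the 10 calls for genes of the set, Gsr in MSC against smoke alone passed under every alternative run, and its sign turned with the spike-ins. On the percentile scale 62.2% of features lay further from the median of all features than this difference. Outside the set, call and sign held in all 21 alternatives for Slc3a2 and Prdx1 in the 3 comparisons with smoke arrays, for Hagh in smoke against naive and MSC against smoke, and for Mgst1 in MSC against smoke. The causes of the losses were not tested. Dim signal limits Keap1, Slc7a11 and the second Txnrd1 probe most.

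Scaling to the E1A spike-ins changed the number of called features to 20791 (11929 on the percentile scale) for smoke against naive, 18411 (9998) for EV against smoke, 10155 (1793) for EV against MSC, 2 (0) for EV against naive and 1610 (1) for MSC against naive. The share of calls that are higher was 99.4% against 25.5% in smoke against naive, 1.02% against 74.98% in EV against smoke and 0.887% against 72.5% in MSC against smoke. The called genes of the set numbered 8 for each of the 3 comparisons with smoke arrays and 6 for EV against MSC. The sign turned in smoke against naive for Hmox1 (2.89), Srxn1 (2.36), Gsr (1.67), Slc7a11 (2.41), Bach1 (0.0067), Btrc (1.37), Mafg (1.40), Abcc2 (1.36), Ftl1 (1.37) and Ggct (0.84). It turned in EV against smoke for Hmox1 (−1.77), Srxn1 (−1.32), Gsr (−1.29), Slc7a11 (−1.66), Btrc (−0.92), Ftl1 (−0.92), Ggct (−0.26) and Me1 (−0.91). In MSC against smoke it turned for Srxn1 (−3.34), Gsr (−2.35), Slc7a11 (−1.77), Bach1 (−0.12), Btrc (−1.86), Mafg (−2.33), Abcc2 (−1.99), Ftl1 (−2.02), Ggct (−1.33) and Tkt (−2.10). Among uncalled differences it turned for Gsr (1.05) and Slc7a11 (0.11) in EV against MSC, Nfe2l2 (0.34) and Gsr (0.38) in EV against naive, and Srxn1 (−0.98) and Gsr (−0.67) in MSC against naive.

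Normexp background correction called 18514 features for smoke against naive, 17223 for EV against smoke, 12638 for EV against MSC and 307 for MSC against naive. It called 5 genes of the set in EV against smoke and 1, Slc7a11, in EV against MSC. The sign turned for Txnrd2 in smoke against naive (−0.63), Keap1 (0.15) and Hmox1 (0.15) in MSC against smoke, Keap1 (−0.53) and Txnrd1 (−0.68) in EV against MSC, Keap1 (−0.064), Gclc (−0.0095), Txnrd1 (−0.26) and Slc7a11 (−0.28) in EV against naive, and Keap1 (0.47) and Txnrd1 (0.42) in MSC against naive.

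Quantile normalization gave 142 calls in MSC against naive and turned the signs of Hmox1 (0.16), Slc7a11 (0.28) and Ftl1 (0.24) in smoke against naive, of Ftl1 in EV against smoke (−0.023) and MSC against smoke (−0.60), and of Srxn1 in MSC against naive (−0.079). Under cyclic loess Hmox1 (0.33) and Slc7a11 (0.089) turned in smoke against naive. Under array median scaling Hmox1 was 0.27 in smoke against naive and Srxn1 −0.17 in MSC against naive, with 1042 features called in EV against MSC, and with a percentile over detected probes Hmox1 was 0.24 in smoke against naive. The share of calls that are higher in smoke against naive was 46.9% under quantile normalization, 49.3% under cyclic loess, 40.0% under array median scaling and 10.4% under normexp.

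Without a filter on dim probes 23320 features were called for MSC against smoke, 0 for EV against MSC and 0 for MSC against naive. With probes well above background on all arrays the last 2 counts were 3078 and 66. In MSC against naive, 69 features were called with a trended and robust prior and 0 with every probe its own feature. A fit of the compared groups alone called 0 features in EV against MSC and 0 in MSC against naive, and so did a fit without both smoke arrays (0 and 0).

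The samples share replicate numbers, but same-numbered samples deviated together with correlations of only −0.149 to 0.138 over the 6 pairs of groups, so the numbers were not read as a pairing. With the replicate number as a block 11564, 9442, 14801, 1004, 0 and 0 features were called, and 2, 3, 5, 0, 0 and 0 genes of the set, in the order smoke against naive, EV and then MSC against smoke, EV against MSC, EV and then MSC against naive.

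Leaving out each array in turn gave 4381 to 13291 called features and 0 to 3 genes of the set in smoke against naive, 1866 to 11507 and 0 to 4 in EV against smoke, 3 to 6 genes of the set in MSC against smoke, 0 to 1750 features and 0 to 1 gene in EV against MSC, 0 to 26 features in EV against naive and 0 to 157 in MSC against naive. The fewest calls in the first 3 comparisons came without the first smoke array. Ranges that include 0 were −0.36 to 0.23 for Hmox1 in smoke against naive, −1.19 to 1.03 for Hmox1 in MSC against smoke, −0.41 to 3.02 for Keap1, −0.32 to 1.89 for Hmox1 and −0.070 to 0.69 for Txnrd1 in EV against MSC, −0.039 to 0.11 for Gclc, −0.41 to 0.57 for Txnrd1, −0.43 to 0.23 for Gsr and −0.11 to 0.65 for Slc7a11 in EV against naive, and −2.21 to 1.22 for Keap1, −1.25 to 0.96 for Hmox1 and −0.72 to 0.26 for Txnrd1 in MSC against naive. A group left with 1 array was assumed to vary like the others.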
